A study of Mus musculus with 36 samples.

Results

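Aldehyde dehydrogenases are enzymes that oxidize aldehydes to carboxylic acids with NAD or NADP as the cofactor. In muscle and other tissues they complete the breakdown of amino acids and of GABA, take part in the synthesis of retinoic acid and of carnitine, oxidize formyl groups of the folate cycle, and clear the reactive aldehydes that come from lipid peroxidation and from ethanol. The 10 genes described here are the Aldh genes named Aldh1a1, Aldh1l1, Aldh1l2, Aldh2, Aldh3a2, Aldh4a1, Aldh5a1, Aldh6a1, Aldh7a1 and Aldh9a1, and they were found by their symbol among 46893 features of the count table. All 10 were present and all 10 had a mean count of at least 25, the minimum for a test, in every comparison. The table holds 21 Aldh genes, and over 36 mice the 10 members made up 95.3% of the summed FPKM (counts scaled to library size and to the length of the gene) of the family.

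Gene expression was measured in gastrocnemius muscle of male wild-type C57BL/6 mice, with 1 library per mouse and 6 mice in each of 6 groups. The mice were 3 to 4 weeks old when the study began and were treated for 12 weeks. HFD-C mice were sedentary on a high-fat diet, in which soybean oil gave 45% of the energy, and NFD-C mice were sedentary on a diet in which it gave 16%. The mice of 4 groups on the 45% diet had a running wheel. HFD-25% mice covered 2.1 km/day, HFD-50% mice 4.2, HFD-75% mice 6.3 and HFD-U mice 8.3 km/day, which put them at 25, 50, 75 and 100% of the unrestricted distance. Wheels were braked once a restricted mouse had met its distance, and the NFD-C group had no running counterpart.

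The 36 libraries held 13060090 to 27981702 counted reads. The share of counts on 5 rRNA-linked features (Lars2, AY036118, LOC118568312, mt-Rnr1 and mt-Rnr2) separated them into sets that did not follow the groups exactly. It was 2.01 to 3.80% in NFD-C, 2.12 to 3.54% in 4 HFD-C mice (replicates 1 to 4), 0.551 to 0.626% in the other 2 HFD-C mice (replicates 5 and 6), and 0.404 to 1.02% in the 24 running mice. All 4 contrasts of running with HFD-C therefore also set low-share libraries against a group in which 4 of 6 had a high share. In the contrast of NFD-C with HFD-C, only HFD-C held low-share libraries. Values from the 2 low-share HFD-C mice alone are given below for Aldh1l1, Aldh9a1, Aldh2 and Aldh1a1. The muscle origin was checked with 10 myofibre markers, whose summed level was 96434 to 183909 CPM (CPM are counts scaled to library size, with TMM factors), and none of these markers was at 0 in all libraries.

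Aldh1l1 and Aldh9a1 were the members with the largest differences between groups, and both belong to the genes that the study itself picked for their dose response in these same mice, so that their direction is not independent evidence. Reference promoters from RefSeq's tables were taken for 7 of the 10 members, with Aldh7a1 left out of the search. The 250 bases before the start site of Aldh1l1 (GRCm38.p6, chr6:90550543-90550792, plus strand) and of Aldh9a1 (GRCm38.p6, chr1:167349741-167349990, plus strand) are shown because these are the genes the results turn on. Both are written 5′ to 3′ with the start site following the last base, and capitals mark matches to the motifs described after them.
Aldh1l1: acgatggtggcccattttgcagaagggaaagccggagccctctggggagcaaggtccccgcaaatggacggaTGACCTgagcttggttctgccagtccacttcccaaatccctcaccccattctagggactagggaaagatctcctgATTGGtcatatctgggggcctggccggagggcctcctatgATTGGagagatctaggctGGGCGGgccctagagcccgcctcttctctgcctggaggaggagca
Aldh9a1: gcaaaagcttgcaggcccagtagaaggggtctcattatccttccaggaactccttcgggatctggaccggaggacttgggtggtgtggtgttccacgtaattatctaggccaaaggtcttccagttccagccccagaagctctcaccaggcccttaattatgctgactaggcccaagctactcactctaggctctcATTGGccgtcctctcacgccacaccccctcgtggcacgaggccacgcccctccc

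On either strand, 8 short motifs were searched, namely the GC box (GGGCGG), the TATA box (TATAAA), the E-box (CACGTG), the CRE core (TGACG), a FOXO site (GTAAACA), the glucocorticoid receptor motif (AGAACA), the nuclear receptor motif (AGGTCA) and the CCAAT box (CCAAT). The CRE core and the glucocorticoid and nuclear receptor motifs are each only a part of the full element, so a match is not a full site. The Aldh1l1 window held a GC box 45 to 40 bases before the start site, a nuclear receptor motif on the minus strand at 178 to 173 bases, and CCAAT boxes on the minus strand at 103 to 99 and at 63 to 59 bases. The Aldh9a1 window held only a CCAAT box on the minus strand, 54 to 50 bases before the start site. Such matches are common. Of 32851 RefSeq promoters, 33.8% held a CCAAT box, 32.7% a GC box and 14.02% a nuclear receptor motif in the same window. CpG dinucleotides numbered 7 in the Aldh1l1 window and 8 in the Aldh9a1 window, against a median of 6 over all promoters. The data hold no measure of binding or methylation there, so the matches are a description of the letters alone.

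The members spanned a 49.9-fold range of levels. Per length, Aldh1a1 was highest with a mean of 44.98 FPKM over 36 mice, followed by Aldh6a1 (35.2), Aldh2 (22.3), Aldh4a1 (13.2), Aldh9a1 (7.76), Aldh7a1 (5.40), Aldh1l1 (2.13), Aldh3a2 (1.41), Aldh5a1 (1.33) and Aldh1l2 (0.901). The first 3 are the cytosolic retinal dehydrogenase, the mitochondrial methylmalonate semialdehyde dehydrogenase of valine breakdown and the mitochondrial acetaldehyde dehydrogenase. Aldh1a1 had a higher FPKM than 92.0% of the tested genes, and Aldh1l2 than 16.2%. The summed FPKM of the members was 111 ± 14.4 (SD, n = 6) in NFD-C and 134 ± 33.6 in HFD-C. From the shortest to the longest distance it was 138 ± 13.4, 151 ± 28.6, 137 ± 28.2 and 136 ± 15.8, and the ranges overlapped between all groups. Within this sum the share of Aldh9a1 was 3.39% in HFD-C and 8.03% in HFD-50%, and that of Aldh1l1 was 0.962% in HFD-C and 2.07% in HFD-25%.

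**Figure D1:**
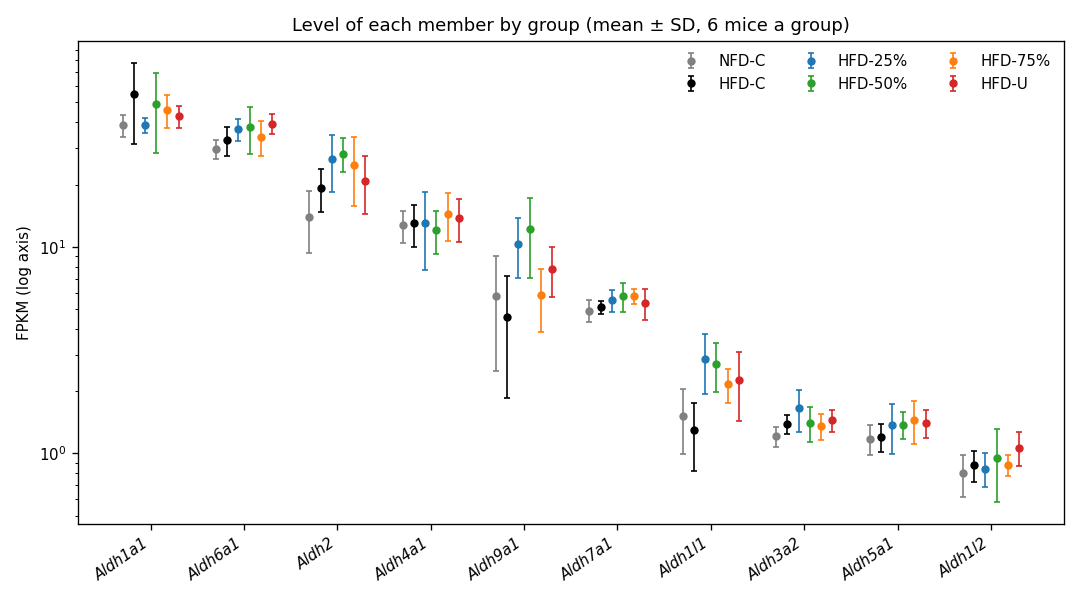
Level of each of the 10 members in FPKM on a log axis, as mean ± SD of 6 mice in each of 6 groups, with members ordered by their mean over 36 mice. The order from Aldh1a1 (44.98 FPKM) to Aldh1l2 (0.901 FPKM) is much wider than the spread between groups within a member.

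Spread between mice of 1 group differed among members. Aldh9a1 varied most, with a coefficient of variation of 27.2 to 59.5% within groups and a 10.3-fold range over all 36 mice. Aldh7a1 varied least, with 7.05 to 16.9% within groups and a 1.70-fold range. The group means of Aldh9a1, Aldh1l1 and Aldh2 differed by 2.67, 2.22 and 2.02 times between their lowest and highest group, and those of the other 7 members by 1.17 to 1.41 times.

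Each running group and NFD-C were compared with HFD-C to ask how expression changes with distance and with diet. These comparisons share the HFD-C mice, so their results are not independent of each other. At an unadjusted p of at most 0.05 (edgeR's quasi-likelihood test), the limit that the study used for differential expression, 4 of 10 members differed in HFD-25%, where 6.98% of all genes tested did. For HFD-50% it was 3 members against 10.7% of all genes, for HFD-75% 1 against 5.47%, for HFD-U 2 against 5.46% and for NFD-C 2 against 4.12%. The running groups had 3, 3, 1 and 2 members higher than HFD-C, where 3.40, 5.80, 2.31 and 2.15% of all genes were higher. Lower members were 1 in HFD-25% (3.58% of all genes) and 2 in NFD-C (2.14%). After Benjamini-Hochberg adjustment over all genes no member passed 0.05 in any of these comparisons, and the smallest adjusted p was 0.134. Over all genes, 1 passed in HFD-25% (0.0082%) and 0 in each of the other 4 (0%), while 852 genes there and 504 to 1296 in the others passed without adjustment. The median log2 fold change of the 10 members was 0.16, 0.18, 0.15 and 0.16 in the running groups from the shortest to the longest distance and -0.09 in NFD-C, where the medians over all genes lay between -0.01 and 0.01. In 0 of the 10 members did the mice of a running group or of NFD-C lie fully apart from those of HFD-C. Over all genes 0.352, 0.784, 0.264, 0.341 and 0.229% did, in the order given above.

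**Figure D2:**
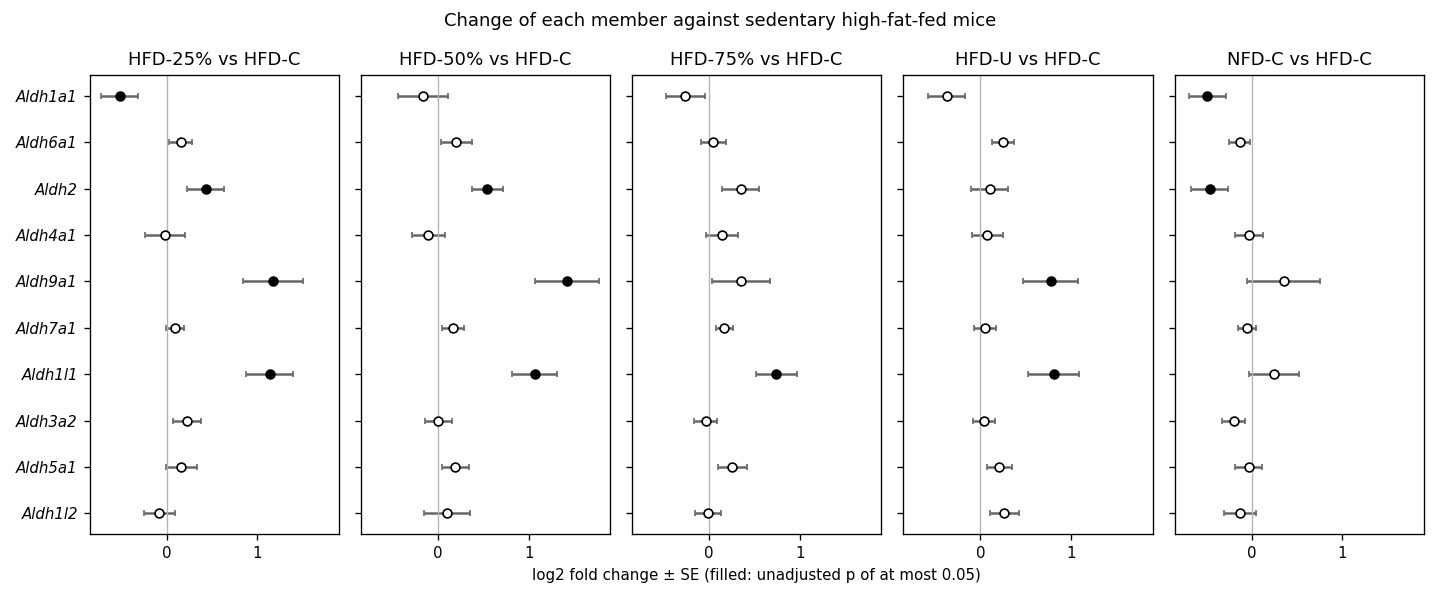
Log2 fold change ± SE of each member against HFD-C from edgeR, in 1 panel for each running group and NFD-C (6 mice a group), with filled points for an unadjusted p of at most 0.05. Aldh1l1 lies above 0 with a filled point in all 4 running groups, at 1.13, 1.07, 0.74 and 0.81.

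Aldh1l1 (gene ID 107747, GRCm39 chr6:90527751-90576153, plus strand) encodes the cytosolic formyltetrahydrofolate dehydrogenase, which removes formyl groups from the folate pool as carbon dioxide. Its level was lowest in HFD-C, with 2.60 CPM in the lowest mouse, a median of 3.55 and 6.63 in the highest. In HFD-25% it ran from 5.71 over a median of 10.2 to 12.8 CPM, and in HFD-50% from 5.25 over 8.83 to 12.5 CPM. Thus 4 of 6 HFD-25% mice and 5 of 6 HFD-50% mice lay above every HFD-C mouse. In HFD-75% it ran from 5.55 over 6.98 to 8.71 CPM and in HFD-U from 3.90 over 7.53 to 11.5 CPM, with 4 of 6 mice of each group above all of HFD-C. NFD-C mice had 3.18 to 7.74 CPM with a median of 4.76, which covers most of the HFD-C range.

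The means of Aldh1l1 were 4.22 ± 1.54 CPM (SD, n = 6) in HFD-C and 9.37 ± 3.0 in HFD-25%, a log2 fold change of 1.13 ± 0.26 (SE; unadjusted p = 0.000557, adjusted p = 0.283, edgeR). In HFD-50% the mean was 8.85 ± 2.38 CPM and the log2 fold change 1.07 ± 0.25 (unadjusted p = 0.000653, adjusted p = 0.134, edgeR). The differences were smaller in HFD-75%, at 0.74 ± 0.23 (7.07 ± 1.30 CPM, unadjusted p = 0.00488, edgeR), and in HFD-U, at 0.81 ± 0.28 (7.43 ± 2.74 CPM, unadjusted p = 0.0105, edgeR). Adjusted p-values there were 0.567 and 0.674. All 4 kept an unadjusted p of at most 0.05 when any 1 mouse was left out. Against the 2 low-share HFD-C mice alone (replicates 5 and 6, at 3.46 and 6.63 CPM), the log2 fold changes were 0.88, 0.81, 0.47 and 0.54, with unadjusted p-values of 0.0405, 0.0407, 0.126 and 0.201 from edgeR. Under the 8 alternative settings other than leaving out a mouse, the calls in HFD-25% and HFD-50% held in 8 of 8. Those in HFD-75% and HFD-U held in 6 of 8, with largest unadjusted p-values of 0.176 and 0.201 (edgeR). DESeq2 gave an adjusted p of 0.0183 in HFD-25% and of 0.00901 in HFD-50%. The share of all genes that DESeq2 called is not given here. Against the mean of NFD-C, 4.98 ± 1.73 CPM, HFD-C differed by less than the spread (unadjusted p = 0.380, edgeR). An antisense lncRNA, Gm15756, overlaps Aldh1l1 by 2487 bases. This overlap was taken from the start and end of each gene, and whether it holds exons of both was not checked. The kit did not mark strand, so reads on any shared exon could not be assigned to one or the other. The level of Gm15756 itself was low, with a mean count of 28.5 and group means of 0.979 to 2.0 CPM that did not follow those of Aldh1l1.

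Aldh9a1 (gene ID 56752, GRCm39 chr1:167177532-167196099, plus strand) oxidizes trimethylaminobutyraldehyde, a late step of carnitine synthesis. Within HFD-C it fell into low and high mice, with 7.35, 8.49, 10.1 and 11.2 CPM in replicates 3, 1, 5 and 2, and 23.1 and 28.5 CPM in replicates 6 and 4. Those same 2 mice also had the highest Aldh1l1 in that group, 6.63 and 5.60 CPM. HFD-25% mice had 18.4 to 48.0 CPM with a median of 34.6, and HFD-50% mice 20.2 to 68.1 CPM with a median of 37.2. In each of these groups 4 of 6 mice lay above all HFD-C mice. HFD-75% mice (11.2 to 30.2 CPM, median 18.5) and HFD-U mice (18.8 to 38.7 CPM, median 23.6) overlapped HFD-C widely, with 1 mouse of each above it. NFD-C mice were as spread as HFD-C, from 6.60 to 35.8 CPM with a median of 18.6.

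The log2 fold change of Aldh9a1 against HFD-C (14.8 ± 8.80 CPM) was 1.18 ± 0.33 in HFD-25% (33.7 ± 10.9 CPM, unadjusted p = 0.00268, adjusted p = 0.398, edgeR) and 1.42 ± 0.35 in HFD-50% (39.6 ± 16.7 CPM, unadjusted p = 0.00106, adjusted p = 0.154, edgeR). Both kept an unadjusted p of at most 0.05 without any 1 mouse. In HFD-U it was 0.77 ± 0.31 (25.4 ± 6.92 CPM, unadjusted p = 0.0226, adjusted p = 0.842, edgeR), and the call was lost without HFD-C replicate 3 (unadjusted p = 0.0506) or HFD-U replicate 4 (unadjusted p = 0.0665). With the mouse number as a block, which the pairing check allowed for HFD-U alone, this value was 0.92 (unadjusted p = 0.000572, adjusted p = 0.131, edgeR). In HFD-75% it was 0.35 ± 0.32 (19.0 ± 6.39 CPM, unadjusted p = 0.294, edgeR), and in NFD-C 0.35 ± 0.40 (18.8 ± 10.7 CPM, unadjusted p = 0.390). Against the low-share HFD-C mice alone, the values were 1.01 in HFD-25% (unadjusted p = 0.0263, edgeR), 1.25 in HFD-50% (0.0182) and 0.59 in HFD-U (0.0862). With the share added to the fit they were 0.95 in HFD-25%, where the call was lost (unadjusted p = 0.0741, edgeR), 1.15 in HFD-50% (0.0319) and 0.50 in HFD-U (0.297). DESeq2 gave an adjusted p of 0.00844 in HFD-50%, and its share of all genes called is not given here.

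Aldh2 (gene ID 11669, GRCm39 chr5:121704090-121731887, minus strand) is the mitochondrial enzyme that oxidizes acetaldehyde and aldehydes from lipid peroxidation. It was lowest in NFD-C, where mice ran from 33.8 to 90.7 CPM with a median of 56.7, and HFD-C mice ran from 52.8 to 99.3 CPM with a median of 88.4. HFD-25% mice had 71.7 to 152 CPM (median 105) and HFD-50% mice 85.6 to 141 CPM (median 119), with 4 and 5 of 6 mice above all of HFD-C. The log2 fold change was 0.55 ± 0.17 in HFD-50% (117 ± 21.7 against 80.3 ± 18.9 CPM, unadjusted p = 0.00626, adjusted p = 0.269, edgeR), and the call held without any 1 mouse. In HFD-25% it was 0.43 ± 0.20 (110.0 ± 33.7 CPM, unadjusted p = 0.0488, edgeR), and 7 of the 12 fits that left out 1 mouse lost the call. HFD-75%, with 0.35 ± 0.20 (103 ± 37.5 CPM, unadjusted p = 0.104), and HFD-U, with 0.10 ± 0.21 (86.9 ± 27.3 CPM, unadjusted p = 0.627), did not pass in edgeR. Against the 2 low-share HFD-C mice alone the values for Aldh2 were 0.50, 0.61, 0.41 and 0.16 from the shortest to the longest distance, with unadjusted p-values of 0.122, 0.0312, 0.205 and 0.607 from edgeR. In NFD-C it was -0.46 ± 0.21 (58.0 ± 19.3 CPM, unadjusted p = 0.0396, adjusted p = 0.9996, edgeR), also lost in 7 of 12 such fits.

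Aldh1a1 (gene ID 11668, GRCm39 chr19:20469947-20620827, plus strand), the cytosolic enzyme that makes retinoic acid from retinal, went the other way. HFD-C mice had 99.97 to 301 CPM with a median of 144, HFD-25% mice 106 to 134 CPM with a median of 116, and NFD-C mice 97.8 to 134 CPM with a median of 117. The top HFD-C mouse, replicate 6, stood at 301 CPM, and the next highest at 168 CPM. Aldh1a1 was lower than in HFD-C (165 ± 70.3 CPM), with a log2 fold change of -0.52 ± 0.21 in HFD-25% (117 ± 9.61 CPM, unadjusted p = 0.0245, adjusted p = 0.643, edgeR) and of -0.49 ± 0.21 in NFD-C (117 ± 14.3 CPM, unadjusted p = 0.0317, adjusted p = 0.9996, edgeR). Without replicate 6 the values were -0.25 (unadjusted p = 0.0760, edgeR) and -0.23 (unadjusted p = 0.103), and both calls were lost. The NFD-C call was also lost without NFD-C replicate 2 (unadjusted p = 0.0595), 4 (0.0540) or 5 (0.0665). The differences in HFD-50% (148 ± 62.2 CPM), HFD-75% (139 ± 24.9 CPM) and HFD-U (129 ± 15.2 CPM) had log2 fold changes of -0.16, -0.26 and -0.37 and unadjusted p-values of 0.572, 0.239 and 0.0909 in edgeR, and without HFD-C replicate 3 the p in HFD-U was 0.0266. Against the 2 low-share HFD-C mice alone, which include replicate 6, the values from the shortest to the longest distance were -0.92, -0.57, -0.68 and -0.78, with unadjusted p-values of 0.00249, 0.173, 0.0224 and 0.00559 from edgeR. With the rRNA-linked share added to the fit they were -0.88, -0.33, -0.63 and -0.78, with unadjusted p-values of 0.00272, 0.327, 0.0243 and 0.00649, and in NFD-C -0.24 (unadjusted p = 0.256, edgeR). HFD-50% replicate 4 also stood high, at 265 CPM.

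**Figure D3:**
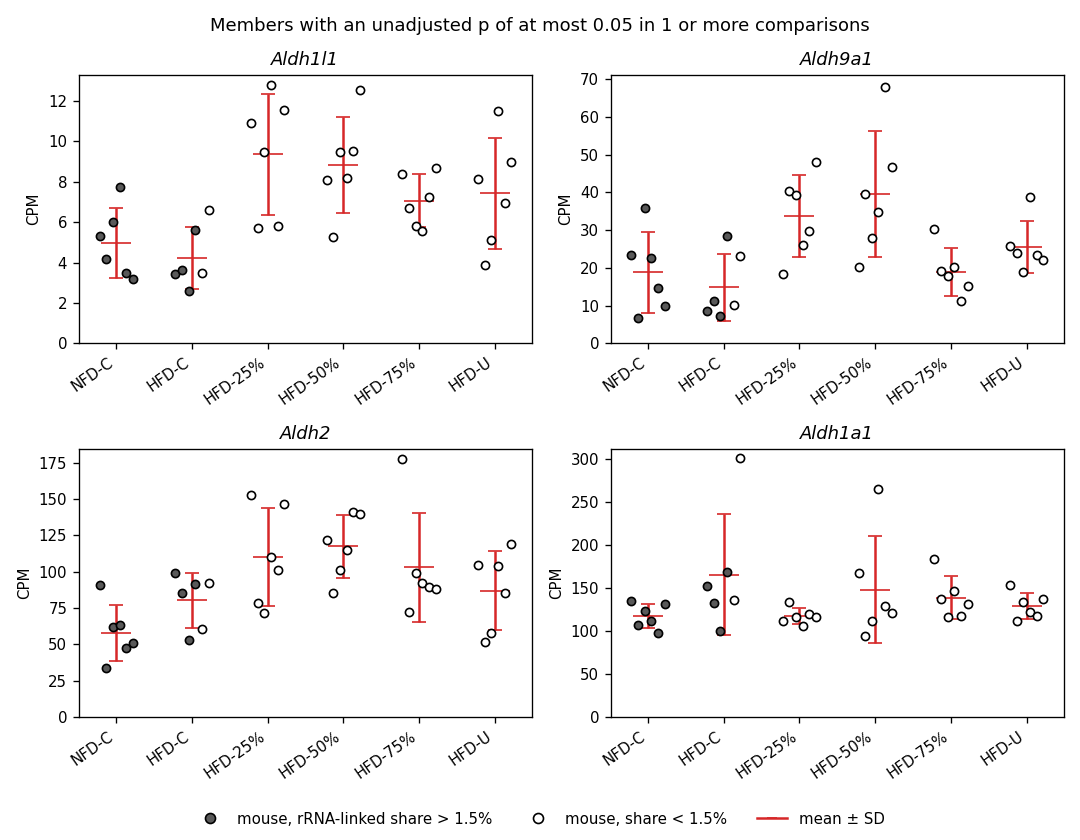
CPM of Aldh1l1, Aldh9a1, Aldh2 and Aldh1a1 in each of 36 mice by group, with the mean ± SD of 6 mice in red and filled points for libraries with an rRNA-linked share above 1.5%. HFD-C holds filled and open points, the running groups only open ones, and for Aldh9a1 the HFD-C mice split into 4 low and 2 high ones.

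The remaining 6 members had no unadjusted p of at most 0.05 in any of the 8 tests. Aldh6a1 (gene ID 104776) came nearest. Its HFD-C mice had 99.1 to 149 CPM with a median of 126, its HFD-U mice 130 to 176 CPM with a median of 147, and the log2 fold change was 0.25 ± 0.12 (148 ± 16.3 against 123 ± 20.2 CPM, unadjusted p = 0.0518, edgeR). The opposite-strand gene Bbof1 overlaps it by 10789 bases. Aldh4a1 (gene ID 212647), the mitochondrial enzyme that turns the proline breakdown product into glutamate, had group means between 66.3 ± 15.5 CPM in HFD-50% and 79.0 ± 20.4 CPM in HFD-75%. Aldh7a1 (gene ID 110695) acts on the semialdehyde of lysine breakdown and had means between 21.3 ± 2.57 CPM in NFD-C and 25.0 ± 2.15 CPM in HFD-75%. From the shortest to the longest distance 3, 5, 4 and 3 of 6 mice lay above all HFD-C mice, and 0, 1, 0 and 2 below. The log2 fold change was 0.17 ± 0.12 in HFD-50% (unadjusted p = 0.184, edgeR) and 0.17 ± 0.09 in HFD-75% (unadjusted p = 0.0912, edgeR). Aldh7a1 shares 10472 bases with Phax on the opposite strand.

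Aldh5a1 (gene ID 214579) oxidizes succinic semialdehyde from GABA, and its group means ran from 8.24 ± 1.36 CPM in NFD-C to 10.2 ± 2.38 CPM in HFD-75%. Aldh3a2 (gene ID 11671), the fatty aldehyde dehydrogenase of the endoplasmic reticulum, ran from 10.8 ± 1.22 CPM in NFD-C to 14.8 ± 3.47 CPM in HFD-25%. Aldh1l2 (gene ID 216188) is the mitochondrial counterpart of Aldh1l1. Its means ran from 7.38 ± 1.69 CPM in NFD-C to 9.81 ± 1.84 CPM in HFD-U, and its log2 fold changes against HFD-C in the running groups were -0.08, 0.10, -0.01 and 0.27 with increasing distance (unadjusted p-values from 0.120 to 0.945, edgeR). Whether the change of Aldh1l1 differed from that of Aldh1l2 was not tested.

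**Figure D4:**
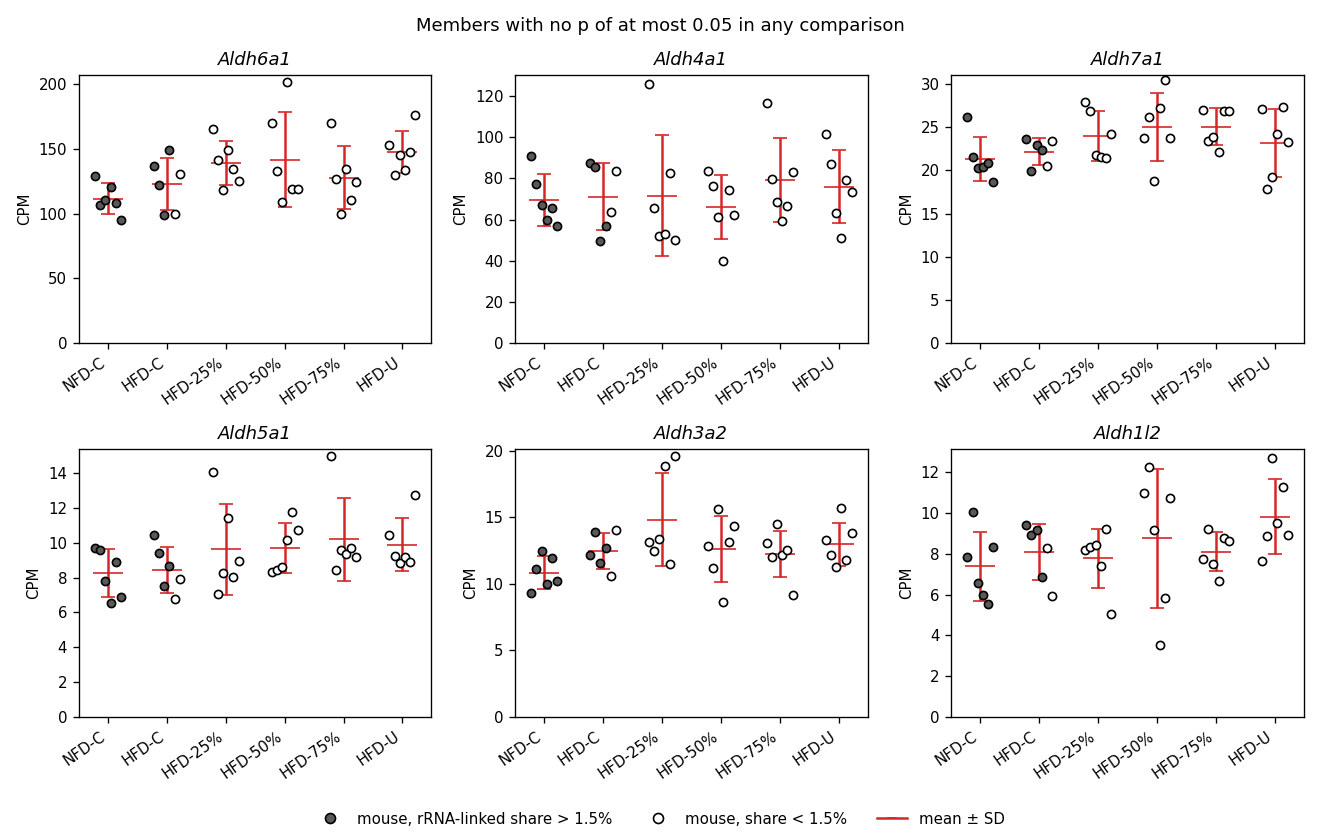
CPM of Aldh6a1, Aldh4a1, Aldh7a1, Aldh5a1, Aldh3a2 and Aldh1l2 in each of 36 mice by group, with the mean ± SD of 6 mice in red and filled points for libraries with an rRNA-linked share above 1.5%. The groups overlap in every panel, and for Aldh5a1 HFD-75% replicate 1 stands alone at 14.97 CPM.

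The comparison of HFD-50% with HFD-U asks whether the middle distance differs from unrestricted running without using HFD-C mice, and all 12 of its libraries have a low rRNA-linked share. In it 2 of 10 members passed the unadjusted limit, against 12.4% of all genes. Aldh9a1 was higher in HFD-50% by 0.65 ± 0.25 on the log2 scale (39.6 ± 16.7 against 25.4 ± 6.92 CPM, unadjusted p = 0.0204, adjusted p = 0.331, edgeR), and without HFD-50% replicate 5, the mouse at 68.1 CPM, the unadjusted p was 0.0772. Aldh2 was higher by 0.44 ± 0.20 (117 ± 21.7 against 86.9 ± 27.3 CPM, unadjusted p = 0.0449, adjusted p = 0.392, edgeR), lost in 7 of 12 fits without 1 mouse. Aldh1l1 had a log2 fold change of 0.26 ± 0.25 (unadjusted p = 0.313, edgeR), so no difference between these distances was called, and with this SE a moderate one could be missed. When the rRNA-linked share was added to the fit, neither Aldh9a1 (unadjusted p = 0.0687) nor Aldh2 (unadjusted p = 0.158) passed. Between these groups mt-Rnr1, mt-Rnr2 and Lars2 differed by 0.72, 0.56 and 0.46 (unadjusted p-values of 0.0317, 0.0578 and 0.0616, edgeR). AY036118 and LOC118568312 differed by 0.08 and 0.05 (0.692 and 0.808). With only low-share libraries here, the added share does not stand for the split into high and low sets. The mice of the groups overlapped in all 10 members, and lay apart in 0.844% of all genes. No member passed after adjustment, against 0.00844% of all genes.

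For a dose response, distance entered the fit as a linear term together with its square. Over the 30 mice on the 45% diet, 3 of 10 members had an unadjusted p of at most 0.05, against 12.2% of all genes, and 0 of 10 passed after adjustment, against 0.683%. They were Aldh1l1 (unadjusted p = 0.00476, adjusted p = 0.168, edgeR), Aldh9a1 (0.0135 and 0.248) and Aldh2 (0.0231 and 0.304). In this fit, which includes HFD-C, all had a bell-shaped curve, with its top at 58.4, 54.9 and 51.1% of the unrestricted distance. The 3 calls held in all 30 fits that left out 1 mouse. Over the 24 running mice alone 0 of 10 members passed the unadjusted limit, against 8.49% of all genes, and 0 of 10 the adjusted one, against 0.0419%. Aldh9a1 had the smallest p, 0.0870. Without HFD-C the curves of Aldh1l1 and Aldh9a1 were decreasing, with no top within the distances run. That of Aldh2 stayed bell-shaped, with its top at 45.4%. With the 2 low-share HFD-C mice in place of all 6, the p-values for Aldh1l1, Aldh9a1 and Aldh2 were 0.256, 0.118 and 0.0589.

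**Figure D5:**
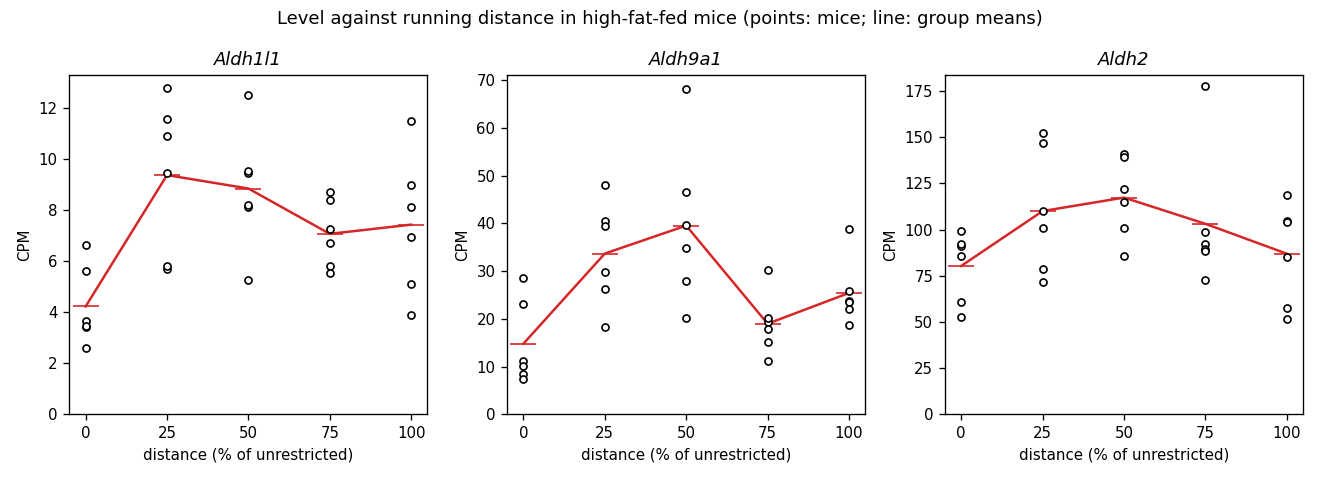
CPM of Aldh1l1, Aldh9a1 and Aldh2 against running distance, in percent of the unrestricted distance, in 30 mice on the 45% fat diet, with a point per mouse and a line through the means of the groups. The mean of Aldh1l1 is highest at 25% (9.37 CPM), and those of Aldh9a1 (39.6 CPM) and Aldh2 (117 CPM) at 50%.

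Neighbouring genes of the same pathways were read from lists. Of the 11 other Aldh genes only 3 passed the minimum count. Aldh16a1 (2.501 FPKM) had no unadjusted p of at most 0.05 in any test. Aldh1a2 (1.96 FPKM), which like Aldh1a1 makes retinoic acid, was lower than in HFD-C at the 3 restricted distances, with log2 fold changes of -0.69, -1.08 and -0.66 (unadjusted p-values of 0.0293, 0.0115 and 0.0494, adjusted 0.669, 0.318 and 0.911, edgeR). Aldh18a1, named after its values were seen, makes an intermediate of proline synthesis and was lower in HFD-50% by -0.75 (unadjusted p = 0.0113, adjusted p = 0.318, edgeR). In HFD-U its log2 fold change was 0.62 ± 0.44 (unadjusted p = 0.182, edgeR), and between HFD-50% and HFD-U it was -1.37 ± 0.49 (unadjusted p = 0.0132, adjusted p = 0.294, edgeR). It also passed the unadjusted limit in the dose response over 30 mice (unadjusted p = 0.00358, adjusted p = 0.150) and over 24 (0.00479 and 0.322, edgeR).

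Around Aldh1l1 and Aldh1l2, 21 of 30 listed genes of folate one-carbon metabolism were tested in HFD-25% and HFD-50%. At the unadjusted limit 1 of 21 was higher in HFD-25% and 4 of 21 in HFD-50%, against 1 of 20 in HFD-75% and 0 of 20 for unrestricted running, and none was lower. Of all genes 3.40, 5.80, 2.31 and 2.15% were higher, in the same order. Of those higher in HFD-50%, Shmt1, a serine hydroxymethyltransferase, and Gnmt, the glycine N-methyltransferase, were named after their values were seen. Their log2 fold changes were 0.65 and 1.43, with unadjusted p-values of 0.000547 and 0.00730 and adjusted p-values of 0.133 and 0.279 in edgeR. The list median was -0.01 there, close to the 0.01 of all genes. The most abundant listed genes, Gart of purine synthesis and Gcsh of the glycine cleavage system, had group means of 40.4 to 50.7 and of 41.6 to 45.5 CPM.

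The list for the breakdown of valine, proline, lysine and GABA, the pathways of Aldh6a1, Aldh4a1, Aldh7a1 and Aldh5a1, had 14 tested genes. In HFD-50% 4 were higher, where 5.80% of all genes were. Among them was Bckdha, a subunit of the branched-chain keto acid dehydrogenase, by 0.41 (unadjusted p = 0.0187, adjusted p = 0.366, edgeR), and the list median was 0.31. In the other 4 comparisons with HFD-C 0 of 14 passed, against 4.12 to 6.98% of all genes. Hibadh, the most abundant after Bckdha and the enzyme just before Aldh6a1 in valine breakdown, had means of 92.3 CPM in NFD-C to 117 CPM in HFD-50%.

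For carnitine, the pathway of Aldh9a1, 4 of 5 listed genes were tested. Slc22a5, which takes carnitine into the cell, was lower in NFD-C by -0.43 (unadjusted p = 0.0181, adjusted p = 0.9996, edgeR) and had an unadjusted p above 0.05 in each running group. Slc25a20, the mitochondrial carnitine carrier, ran from 61.1 CPM in NFD-C to 87.4 CPM in HFD-50%. Tmlhe, the first enzyme of carnitine synthesis, was higher in HFD-U by 0.59 (unadjusted p = 0.0363, adjusted p = 0.883, edgeR) and was named after its values were seen. No gene of this list passed in HFD-25% or HFD-50%, where Aldh9a1 was highest.

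Among alcohol dehydrogenases and aldehyde reductases, 8 to 10 listed genes were tested. Against HFD-C the only ones past the unadjusted limit were 1 higher in HFD-25% and 1 higher in HFD-50%, named after their values were seen. Of all genes 3.40 and 5.80% were higher there. The listed ones were the alcohol dehydrogenase Adh1 (0.81, unadjusted p = 0.0117, adjusted p = 0.547, edgeR) and the aldehyde oxidase Aox1 (0.70, unadjusted p = 0.00307, adjusted p = 0.211, edgeR). Aox1 was also higher in HFD-50% than in HFD-U, by 0.59 (unadjusted p = 0.00602), and passed in the dose response over 30 mice (unadjusted p = 0.0144), with adjusted p-values of 0.265 and 0.255 in edgeR. The most abundant, Akr1b3 and Akr1a1, had group means of 137 to 157 and 119 to 132 CPM. Of 9 tested genes of retinoid metabolism and response, 2, 3, 1 and 0 passed the unadjusted limit from the shortest to the longest distance. Of all genes 6.98, 10.7, 5.47 and 5.46% did. Rarb, a retinoic acid receptor, was lower at the restricted distances, by -0.46, -0.76 and -0.81 from the shortest to the longest (unadjusted p-values of 0.0125, 0.00148 and 0.000437, adjusted 0.559, 0.169 and 0.312, edgeR). Rara, another retinoic acid receptor, was named after its values were seen. It was lower in HFD-25% and HFD-50% by -0.54 and -0.48 (unadjusted p-values of 0.00884 and 0.0281, adjusted 0.510 and 0.405, edgeR). Rarb was the only gene of these 6 pathway lists with an adjusted p of at most 0.05 in any of the 8 tests. This was 0.0108 in the dose response over 30 mice, which includes HFD-C and where 0.683% of all genes passed. Over the 24 running mice the adjusted p of Rarb was 0.283 (edgeR). The retinal reductases Dhrs3 and Dhrs4 had their highest group means in HFD-50%, 27.9 and 24.5 CPM. Dhrs3 was higher there than in HFD-C by 0.59 (unadjusted p = 0.0413, adjusted p = 0.445, edgeR).

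Likeness over the 36 mice was measured as the root mean square difference of standardized log2 CPM, which is near 1.40 for the median gene of 12052. Nearest to Aldh1l1 were Car4, a membrane-bound carbonic anhydrase (0.576), Slc25a22, a mitochondrial glutamate carrier (0.5997), and a feature without a gene name (0.6003). The nearest other member was Aldh2, at rank 26. Nearest to Aldh9a1 were Phyhd1 (0.632), Socs2, a suppressor of cytokine signalling (0.671), and Gramd1a (0.687), and the nearest other member was Aldh1l1, at rank 11. Car4 had means of 5.25 CPM in HFD-C and 17.0 CPM in HFD-50%. Phyhd1 had 22.1 and 46.7 CPM. Car4 and Phyhd1 are also among the genes the study picked from these mice.

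Markers of other cell types were set beside these values, because in whole muscle fewer cells of a type and less RNA per cell cannot be told apart. Of 10 endothelial markers, 5, 5, 2 and 0 were higher at the unadjusted limit from the shortest to the longest distance, against 3.40, 5.80, 2.31 and 2.15% of all genes. The list medians were 0.50, 0.47, 0.20 and -0.000947 on the log2 scale. The summed level of these markers was 194 to 347 CPM in HFD-C and, in the same order, 199 to 638, 224 to 491, 229 to 430 and 179 to 387 CPM in the running groups, and none of the 10 was at 0 in all libraries. Of 10 fibroblast markers, 3, 2, 4 and 2 were lower in the same order. Of all genes 6.98, 10.7, 5.47 and 5.46% passed there in either direction. Slow fibre markers, summed, ran from 189 to 2740 CPM within HFD-C, where the 2 mice with high Aldh9a1 (replicates 4 and 6) had 2184 and 2740 CPM and replicate 1, with 8.49 CPM of Aldh9a1, had 2256 CPM. Between HFD-50% and HFD-U, 7 of 10 slow fibre markers were higher in HFD-50% with a median of 1.58, where 12.4% of all genes passed in either direction. Of 8, 8, 9 and 7 adipocyte markers tested, 2, 2, 1 and 1 were higher than in HFD-C from the shortest to the longest distance, and 1, 0, 0 and 3 lower. Of all genes 3.40, 5.80, 2.31 and 2.15% were higher there. The share that was lower was 3.58% in HFD-25% and is not given for the other distances. For those, the lower counts of fibroblast and adipocyte markers have only the shares in either direction beside them. The part of these cell types in the changes of Aldh1l1, Aldh9a1 and Aldh2 was not tested.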

How the data were processed

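The deposited file holds raw counts, whole numbers per gene and library with no normalization, which the authors made from poly(A)-selected, unstranded libraries of gastrocnemius RNA, by aligning reads with HISAT2 2.0.5 and counting on genes with featureCounts 1.5.0-p3. The submitters' processing notes also name StringTie 1.3.3b, DESeq2 1.20.0 and edgeR 3.22.5. These notes name the build mm10, whereas the coordinates beside the counts are those of GRCm39, so file coordinates are given as GRCm39 and promoters separately as GRCm38.p6. Gene lengths deposited by the authors were used only for FPKM.

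All fits were made in R 4.3.3, with edgeR 4.0.16 (which loads limma 3.58.1) and, as an alternative, DESeq2 1.42.0. A gene entered a fit if its counts averaged 25 or more there, the study's minimum. The fits used TMM factors, the quasi-likelihood test (two-sided) and Benjamini-Hochberg adjustment over all genes of the fit. Pairs of groups were fitted alone, 6 mice against 6. CPM are scaled with TMM factors over 36 libraries. Each library is a separate mouse, and depth was 13060090 to 27981702 counts. The tests were tried on simulated counts before use.

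Mouse numbers 1 to 6 recur in every group, and no source says that a number marks a shared litter or day. Deviations of same-numbered mice from their group means correlated above 0.1 in 6 of 6 pairs for HFD-U and HFD-C (0.125 to 0.510), and in 1 to 5 of 6 pairs for the other pairs of groups. Blocked values are given where they bear on HFD-U.

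The members, the pathway and marker lists and the motifs were chosen with earlier results of these data known. Genes named are the 10 members, the 2 most abundant genes of each of 6 pathway lists, any gene of these lists whose adjusted p reached 0.05 or less, and the 3 genes nearest to Aldh1l1 and Aldh9a1. Others are said to be named after their values were seen. Some genes of the folate list are not reported here by name. Alternatives were DESeq2, no minimum count, RLE size factors, the mouse number as a block, the rRNA-linked share as a covariate, mice 2 to 6 alone, HFD-C libraries of like share alone, 1 fit over 36 mice, groups as a factor for the dose response, and leaving out each mouse.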

Additional observations from a re-analysis of the deposited data

Results flagged for a closer look

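In each of the 60 sets of 6 mice formed by the 10 members and 6 groups, the highest and the lowest mouse were compared with the others by Dixon's test. It marked 4 sets, where chance at 1 in 20 gives 3.0. Aldh1a1 in HFD-C replicate 6 was 301 CPM, with the other 5 mice at 99.97 to 168 CPM. Aldh2 in HFD-75% replicate 1 was 178 CPM, with the others at 72.6 to 98.8 CPM. Aldh5a1 in that same mouse was 14.97 CPM, with the others at 8.44 to 9.67 CPM. Aldh9a1 in HFD-U replicate 4 was 38.7 CPM, with the others at 18.8 to 25.8 CPM. Mice numbered 1 deviated together across the 6 groups, with a mean correlation of 0.455 between their deviations from the group means, and the cause was not tested.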

How the results depend on the processing

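Counts of members at the unadjusted limit changed by more than 1.5 times as follows. When the rRNA-linked share was added to the fit they were 2 in HFD-25%, 2 in HFD-75%, 1 in NFD-C, 0 in HFD-50% against HFD-U and 1 in the dose response over 30 mice. Such counts do not show which members passed, and the shares of all genes under these settings are not given here. The 2 in HFD-25% were Aldh1l1 and Aldh1a1. Aldh1a1 was also among the 2 in HFD-75%, where the only main call was Aldh1l1. The other of these 2 is not named here. Over the 8 settings in HFD-75%, Aldh1l1 passed in 6, Aldh1a1 in 2 and Aldh5a1 in 1 (unadjusted p = 0.0409, edgeR). In HFD-U, whose count changed by less, Aldh1a1 passed with the share in the fit and Aldh9a1 did not. With the 2 low-share HFD-C mice alone, fewer samples by construction, the counts were 1 in HFD-U and 0 in the dose response over 30 mice, and with the high-share HFD-C mice alone 1 in NFD-C. HFD-50% against HFD-U gave 1 with mice 2 to 6 alone and 0 in 1 fit over all 36 mice. The dose response over 24 running mice gave 1 member with the replicate block (Aldh2), with mice 2 to 6 alone (Aldh9a1) and with groups as a factor (Aldh9a1). Leaving out 1 mouse gave counts of 3 to 4 in HFD-25%, 3 in HFD-50%, 1 to 2 in HFD-75%, 2 to 3 in HFD-U, 0 to 2 in NFD-C, 0 to 2 in HFD-50% against HFD-U, 3 in the dose response over 30 mice and 0 to 1 over 24.

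At the adjusted limit the main count was 0 in all 8 tests and stayed 0 whichever mouse was left out. DESeq2 gave 1 in HFD-25% and 2 in HFD-50%, where no minimum count gave 1, the replicate block 1 and 1 fit over all 36 mice 2. The shares of all genes that passed under these settings are not given here, so these counts cannot be set against them. The replicate block gave 2 in the dose response over 30 mice (Aldh1l1 with an adjusted p of 0.0324 and Aldh2 with 0.0444, edgeR). For HFD-U, where the pairing check was met, the block called Aldh6a1 beside Aldh1l1 and Aldh9a1. In the other pairs of groups the mice share only a number. The causes were not tested. For a log2 fold change the direction and the side of the limit were compared, and for a dose response only the side. Of 620 single values under other settings 564 kept these, and of 1260 with 1 mouse left out 1172 did. In 18 and 50 of them a log2 fold change turned its sign, each time with an unadjusted p above 0.05 before and after.

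The log2 fold changes that turned under other settings were as follows. With the rRNA-linked share in the fit, Aldh1l2 went from -0.08 to 0.075 in HFD-25%, from -0.010 to 0.13 in HFD-75% and from -0.17 to 0.15 in HFD-50% against HFD-U. Aldh3a2 went from 0.0077 to -0.019 in HFD-50%, from -0.038 to 0.029 in HFD-75% and from -0.035 to 0.059 in HFD-50% against HFD-U, where Aldh1a1 went from 0.21 to -0.12 and Aldh4a1 from -0.19 to 0.19. With the low-share HFD-C mice alone Aldh1l2 was 0.11 in HFD-25% and 0.16 in HFD-75%. With no minimum count Aldh4a1 was 0.0013 in HFD-25%, Aldh3a2 -0.0030 in HFD-50% and Aldh1l2 0.0022 in HFD-75%. With mice 2 to 6 alone Aldh3a2 was -0.0087 in HFD-50%, Aldh1l2 0.045 and Aldh6a1 -0.023 in HFD-75%, and Aldh5a1 0.031 in HFD-50% against HFD-U. With the replicate block Aldh3a2 was -0.0072 in HFD-50%.

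With 1 mouse left out, the log2 fold changes that turned ranged in HFD-25% from -0.15 to 0.019 (Aldh1l2) and from -0.24 to 0.072 (Aldh4a1). In HFD-50% they ranged from -0.42 to 0.10 (Aldh1a1), from -0.019 to 0.26 (Aldh1l2), from -0.063 to 0.095 (Aldh3a2) and from -0.19 to 0.00093 (Aldh4a1). In HFD-75% they ranged from -0.083 to 0.035 (Aldh1l2), from -0.093 to 0.030 (Aldh3a2) and from -0.046 to 0.11 (Aldh6a1). In HFD-U they ranged from -0.010 to 0.22 (Aldh2), from -0.023 to 0.080 (Aldh3a2), from -0.012 to 0.17 (Aldh4a1) and from -0.0036 to 0.12 (Aldh7a1). In NFD-C they ranged from -0.11 to 0.032 (Aldh4a1) and from -0.093 to 0.030 (Aldh5a1). In HFD-50% against HFD-U they ranged from -0.050 to 0.31 (Aldh1a1), from -0.11 to 0.052 (Aldh3a2), from -0.091 to 0.062 (Aldh5a1) and from -0.18 to 0.0074 (Aldh6a1).

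Aldh1l1 and Aldh1l2 had the lowest mean counts of the members, 118.5 and 145 per library, with SEs of 0.23 to 0.28 and of 0.15 to 0.25 against HFD-C on the log2 scale. The SEs of Aldh9a1 were larger, at 0.31 to 0.40, with a mean count of 421. Of the HFD-C mice, only 2 share the low rRNA-linked share of the runners, so running and share cannot be told apart for the other 4.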
